A study of Mus musculus with 8 samples.

Results

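The alpha and beta globin genes of the mouse were followed through DNA replication timing profiles of embryonic stem cells. The 5 genes were taken by name from the mm10 build: Hba-x and Hba-a1 on chromosome 11, and Hbb-y, Hbb-bh1 and Hbb-bt on chromosome 7. They are 5 of the 21072 protein-coding genes that had a timing score. The cells were mouse embryonic stem cells of the male line E14Tg2a and subclones of it, on a 129/Ola background. In the auxin group, 500 µM of the auxin indole-3-acetic acid was given for 2 days. It set off a degron that removes the DNA-binding architectural protein CTCF, and the control group received no auxin. Each group has 2 replicates, and the early and late S-phase libraries of a replicate make 1 profile, so the 8 libraries give 4 profiles. Neither the number of clones nor the independence of the cultures is stated, so the p-values reflect the spread of these profiles alone, which may be technical. None of these samples had auxin without the degron, so effects of auxin and of CTCF loss cannot be told apart, and the level of CTCF is not part of these files.

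Haemoglobin is built from alpha-type and beta-type chains. In the mouse, Hba-x, Hbb-y and Hbb-bh1 encode chains of primitive embryonic red cells, and Hba-a1 and Hbb-bt encode chains of adult red cells. Each cluster is switched on in red cell precursors by distant enhancers, those of the alpha cluster lying within the neighbouring gene Nprl3 and those of the beta cluster in a locus control region beside Hbb-y. CTCF binds insulator sites around both clusters. The alpha cluster is known as a locus that replicates early in many cell types, and the beta cluster as one that replicates late outside the red cell lineage. Embryonic stem cells are not red cell precursors.

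The timing score is higher where DNA replicates earlier. The sources used here give neither its log base nor its formula, so values are quoted as score units. Their SD over all windows was 2.1 in every profile. The authors quantile normalized the profiles, which gives all 4 the same distribution of scores. The table holds 316864 windows on a 6-kb grid over 20 chromosomes. No file gives read counts, so the depth behind each score is unknown. Neighbouring windows are not independent measurements: across the genome, the difference between auxin and control correlated at 0.99 between windows 6 kb apart, at 0.68 at 60 kb and at 0.35 at 300 kb. These correlations describe pairs of windows within the same profiles (n = 279362, 276242 and 268518 pairs).

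The alpha globin genes replicated early and the beta globin genes late in all 4 profiles. Over the alpha cluster (chr11:32276600-32300873) with 25 kb on each side, 13 windows had a mean score of 1.95 ± 0.18 in control and 1.63 ± 0.10 with auxin (SD, n = 2 each). Over the beta cluster (chr7:103812524-103853207), 7 windows had a mean of -3.08 ± 0.020 in control and -3.03 ± 0.55 with auxin. The control profiles crossed within the beta cluster, so the SD of their means understates how far apart they lay at single genes. The alpha cluster thus scored above 72.2% to 79.0% of all windows, depending on the profile, and the beta cluster above 1.72% to 12.4%. Among protein-coding genes, most of which replicate early, the control score of Hba-x exceeded 49.0% of genes and that of Hba-a1 50.1%. Hbb-bt, Hbb-bh1 and Hbb-y exceeded 2.44%, 2.33% and 2.33%. The distance between the clusters was 5.14 and 4.91 in the control profiles and 4.19 and 5.12 with auxin. The lowest and the second highest of these were the auxin profiles, and their mean differed by -0.37 from the control mean (exact permutation of the 4 profiles, two-sided, p = 0.667). The smallest p that 2 profiles against 2 allow is 0.333. Without auxin replicate 1 the difference was 0.096, and without auxin replicate 2 it was -0.84.

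The promoters of 4 of the 5 genes are shown because they set the early alpha genes beside the late beta genes at the level of DNA composition, each with an embryonic and an adult gene. The sequences are those of RefSeq (GRCm38.p6, the coordinates of mm10), from 250 bases before to 50 bases after the start of the gene, read 5′ to 3′ on the strand of the gene. CpG dinucleotides are in capitals. The reference build is of another mouse strain than these cells, whose own sequence was not read and may differ. The positions are chr11:32276350-32276649 (plus strand) for Hba-x, chr11:32283422-32283721 (plus strand) for Hba-a1, chr7:103853158-103853457 (minus strand) for Hbb-y and chr7:103813874-103814173 (minus strand) for Hbb-bt.
Hba-x: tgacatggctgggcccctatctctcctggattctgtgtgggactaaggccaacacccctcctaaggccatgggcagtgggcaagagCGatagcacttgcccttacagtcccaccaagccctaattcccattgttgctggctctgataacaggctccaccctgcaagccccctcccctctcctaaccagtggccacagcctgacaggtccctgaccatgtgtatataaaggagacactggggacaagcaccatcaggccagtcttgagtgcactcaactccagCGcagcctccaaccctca
Hba-a1: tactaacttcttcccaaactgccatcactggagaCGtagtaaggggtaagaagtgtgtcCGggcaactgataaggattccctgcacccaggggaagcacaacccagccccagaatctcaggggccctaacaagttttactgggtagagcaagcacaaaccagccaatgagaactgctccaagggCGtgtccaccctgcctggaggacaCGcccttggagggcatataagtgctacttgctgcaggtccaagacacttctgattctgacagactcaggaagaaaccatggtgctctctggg
Hbb-y: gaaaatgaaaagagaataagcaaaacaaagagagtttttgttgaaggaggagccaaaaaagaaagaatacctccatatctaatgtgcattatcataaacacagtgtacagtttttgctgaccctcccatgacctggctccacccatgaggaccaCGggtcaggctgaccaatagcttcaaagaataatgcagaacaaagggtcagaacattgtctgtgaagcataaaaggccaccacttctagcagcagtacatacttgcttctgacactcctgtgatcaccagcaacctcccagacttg
Hbb-bt: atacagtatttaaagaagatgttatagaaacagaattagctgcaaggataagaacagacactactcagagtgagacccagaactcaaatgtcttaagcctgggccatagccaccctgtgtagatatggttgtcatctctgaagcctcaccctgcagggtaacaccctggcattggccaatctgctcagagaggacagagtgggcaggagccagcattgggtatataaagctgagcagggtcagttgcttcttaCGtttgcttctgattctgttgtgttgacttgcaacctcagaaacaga

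Of the 4 promoters shown, both alpha promoters were richer in G and C than both beta promoters, with 57.3% in Hba-x and 53.3% in Hba-a1 against 43.3% in Hbb-y and 46.0% in Hbb-bt. The other genes of the clusters did not keep this order, with 49.3% in the alpha-type Hbq1a and 49.7% in the beta-type Hbb-bs. Over all 32851 promoters of the table the median was 52.7%. All 4 promoters shown held fewer CpG than the median promoter: Hba-x held 2, Hba-a1 4, Hbb-y 1 and Hbb-bt 1, against a median of 7. In the same control profiles, the promoters of 11333 early genes had a median of 59.2% G and C and 18 CpG, and those of 4055 late genes 46.7% and 3. Hba-x and Hba-a1 thus replicated early with fewer CpG than the median early promoter. The theta-type genes Hbq1b and Hbq1a held 13 and 8 CpG, above the median of all promoters.

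The letters GATA, the core of the site bound by the erythroid factor GATA1, were counted on both strands. They occurred 3 times in Hba-x, 1 time in Hba-a1, and 2 times each in Hbb-y and Hbb-bt, and 57.9% of all promoters hold them. CACCC, the core of the site bound by the erythroid factor KLF1, occurred 2 times in Hba-x and in Hba-a1, 1 time in Hbb-y and 3 times in Hbb-bt (57.5% of all promoters). CCAAT occurred 1 time in Hba-a1 and Hbb-y and 3 times in Hbb-bt (37.4%), and TATAAA 1 time in Hba-x and Hbb-bt (13.6%). These matches are descriptions of the letters and do not show binding. In a global alignment the promoters of Hba-a1 and Hba-a2 were 98.0% identical, those of Hbq1b and Hbq1a 95.3% and those of Hbb-bt and Hbb-bs 71.3%. Reads from such near-identical copies could be placed on either copy, so the scores of Hba-a1 and Hba-a2 are uncertain as separate values.

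Hba-x, the embryonic zeta-type chain gene at the start of the alpha cluster (chr11:32276600-32278116), lies in 1 window. It scored 1.96 and 1.70 in control and 1.56 and 1.84 with auxin. The groups overlapped, because auxin replicate 2 lay between the control profiles. The difference was -0.13 with a 95% interval of -0.65 to 0.40 (limma, Benjamini-Hochberg adjusted p of 0.799 over all genes). It was 0.0095 when auxin replicate 1 was left out and -0.27 when auxin replicate 2 was. The same for the control profiles gave -0.0025 (replicate 1 left out) and -0.25 (replicate 2 left out).

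Hba-a1, an adult alpha chain gene (chr11:32283672-32284486), also lies in 1 window. It scored 2.04 and 1.75 in control and 1.61 and 1.84 with auxin, so its groups overlapped as well. The difference was -0.18, with an interval of -0.70 to 0.35 and an adjusted p of 0.716 in limma. Leaving out auxin replicate 1 gave -0.062 and leaving out auxin replicate 2 gave -0.29. Leaving out control replicate 1 gave -0.032, and control replicate 2, -0.32. The other alpha-type genes follow in the order Hbq1b, Hba-a2 and Hbq1a, of which Hba-a2 is the second adult alpha gene and the other two are theta-type genes. Their control means were 1.99, 2.07 and 2.12, and their auxin means were 1.72, 1.71 and 1.71. In these 3 genes both auxin profiles lay below both control profiles, with differences of -0.27, -0.36 and -0.42 (limma adjusted p of 0.565, 0.446 and 0.386). Such a separation of groups in either direction was found for 49.8% of all protein-coding genes (23.9% higher and 25.9% lower with auxin).

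The score at Hbq1a exceeded that at Hba-x by 0.37 and 0.21 in the control profiles. With auxin the step was 0.14 in replicate 1 and -0.13 in replicate 2. No step between neighbouring alpha genes exceeded the SD of the control profiles, which ranged from 0.18 at Hba-x to 0.29 at Hbq1a. The 5 alpha-type genes take their values from 5 adjoining windows.

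Hbb-y, the embryonic epsilon-type chain gene at the upper end of the beta cluster (chr7:103851754-103853207), lies in 1 window. It scored -2.98 and -3.19 in control and -2.49 and -3.50 with auxin. The auxin profiles lay on either side of both control profiles. The difference was 0.091, with an interval of -0.71 to 0.90 and an adjusted p of 0.913 in limma. Hbb-bh1, the other embryonic gene (chr7:103841638-103843162), overlaps no window. Its nearest window, 4838 bases away, is that of Hbb-y, so both genes share their values and only 4 separate windows stand behind the 5 genes.

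Hbb-bt, an adult beta chain gene at the lower end of the cluster (chr7:103812524-103813923), also overlaps no window, and its nearest one lies 525 bases away. It scored -3.19 and -2.96 in control and -2.83 and -3.40 with auxin, so the auxin profiles again lay on either side of the control profiles. The difference was -0.040, with an interval of -0.65 to 0.57 and an adjusted p of 0.953 in limma. The adult gene Hbb-bs (1 window) and the gene Hbb-bh2 (no window) differed by -0.042 and -0.025. All 5 beta genes had control means between -3.07 and -3.09, closer together than their replicates. The sign of the beta differences rested on single profiles. Without auxin replicate 1, Hbb-y stood at -0.41 and Hbb-bt at -0.33, and without auxin replicate 2 at 0.59 and 0.25. The mm10 build is of another mouse strain than these cells. The genes Hbb-b1 and Hbb-b2, which RefSeq lists outside the primary chromosome 7, were not measured.

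**Figure D1:**
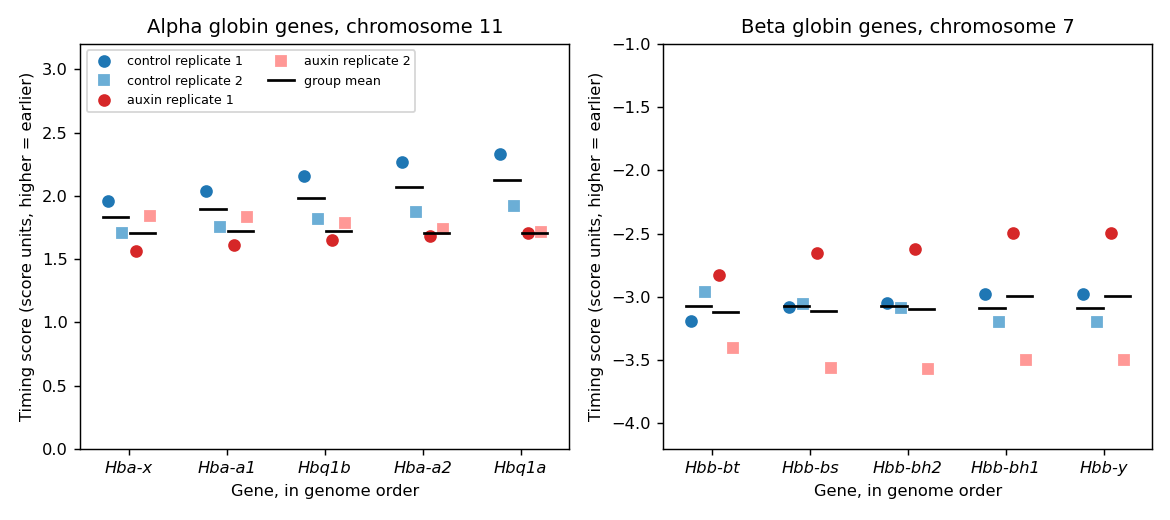
Timing score (score units, higher is earlier) of the 5 alpha-type genes (left) and the 5 beta-type genes (right) in genome order, with a point for each of the 2 control and 2 auxin profiles and a black bar for each group mean (n = 2). All alpha points lie between 1.56 and 2.33 and all beta points between -3.57 and -2.49, and the beta points spread most between the auxin replicates.

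None of the 5 globin genes passed an adjusted p of 0.05 in limma, and 0 of the 5 had an unadjusted p under 0.05. The count was also 0 in a fit with trended, robust variances. Over all 21072 genes, limma called 0 (0% called), 17.1% had an unadjusted p under 0.05, and the trended, robust fit called 5.32%. The widths of the intervals leave room for shifts of -0.70 to 0.40 at the alpha genes Hba-x and Hba-a1 and of -0.71 to 0.90 at the beta genes Hbb-y, Hbb-bh1 and Hbb-bt. These intervals use variances that limma drew toward those of all genes, so they rest partly on the spread at other genes. At Hbb-y the SD was 0.15 in control and 0.71 with auxin (n = 2 each), and the standard error used was 0.34. Intervals from the profiles at each gene alone were not worked out. The intervals do not give the smallest shift that 2 profiles a group could detect, which was not worked out either.

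The replicate spread differed between the clusters. Over the beta cluster the auxin profiles were 0.78 apart and the control profiles 0.028. The control profiles crossed within the cluster, so their gaps cancelled in that mean. Control replicate 1 scored lower than replicate 2 at Hbb-bt (-3.19 against -2.96) and higher at Hbb-y (-2.98 against -3.19). Over the alpha cluster the auxin profiles differed by -0.15 (replicate 1 minus replicate 2) and the control profiles by 0.26. The beta cluster mean differed by 0.050 between auxin and control (exact permutation of the 4 profiles, two-sided, p = 1). It was -0.34 without auxin replicate 1 and 0.44 without auxin replicate 2. The alpha cluster mean differed by -0.32, and both auxin profiles (1.55 and 1.70) lay below both control profiles (2.07 and 1.82). Its exact permutation p of 0.333 is the smallest that this design allows. Without control replicate 1 it was -0.19.

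Within 1 Mb, the alpha cluster sat near the top of a long slope. All 339 grid positions there held a window. About 800 kb below the cluster the profiles reached their lowest scores, -1.66 and -1.89 in control and -1.33 and -1.52 with auxin. The nearest window with a score below 0 lay 363 to 375 kb below the cluster in the 4 profiles. Above the cluster no window scored below 0 within 1 Mb, and the highest scores were 3.38 and 3.29 in control and 3.19 and 3.01 with auxin. From the segment at -900 to -800 kb to that at 100 to 200 kb from the middle of the cluster, the score climbed by 3.74 and 4.19 in control and by 3.23 and 3.33 with auxin. Both auxin profiles thus had a flatter slope than both control profiles. These segments were picked after their values were seen, and the slope was not tested.

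Along that slope the direction of the difference changed. In the 6 segments of 100 kb from -1000 to -400 kb, where control means were between -1.57 and -0.49, both auxin profiles scored higher than both controls, with mean differences of 0.32 to 0.70. In the 4 segments from -200 to 200 kb, which hold the globin genes, both auxin profiles scored lower, with differences of -0.34 to -0.21. The adjoining segment from -300 to -200 kb was separated toward higher scores, by 0.28. From 600 to 800 kb, where control means were 1.35 and 1.88, both auxin profiles were again higher, by 0.35 and 0.38. The segment from 400 to 500 kb was lower, by -0.13. Of 22 segments around the alpha cluster, 9 were separated toward higher and 5 toward lower scores with auxin. Around the beta cluster, 6 of 22 were separated toward higher and 2 toward lower scores. In the genome as a whole, 52.4% of 100-kb segments were separated (27% higher and 25.4% lower with auxin). Since neighbouring segments share much of their signal, runs of separated segments are not independent counts.

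**Figure D2:**
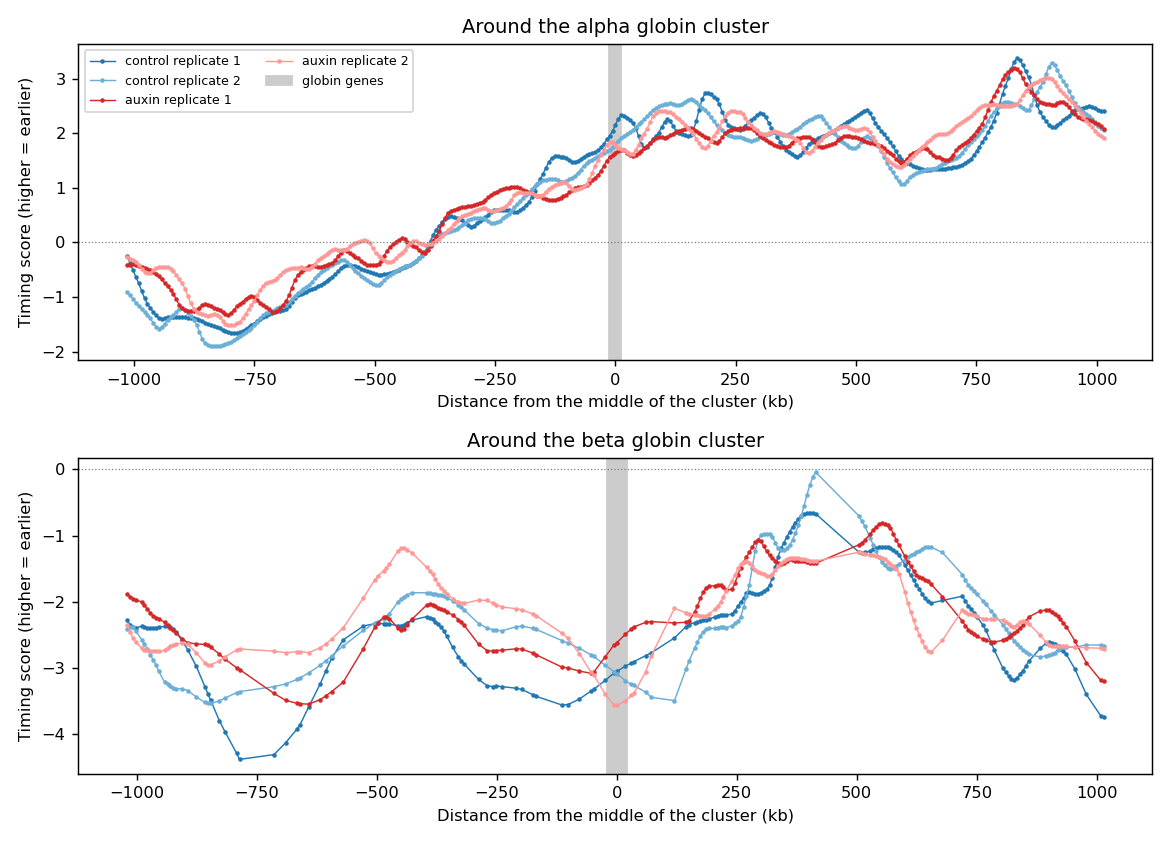
Timing score (higher is earlier) at each window within 1 Mb of the alpha cluster (top) and the beta cluster (bottom) against distance from the middle of the cluster in kb, with a line for each of the 4 profiles and a grey band over the globin genes. The alpha cluster lies on a rise from below -1 to above 2, and the beta region stays below 0 in all 4 profiles with gaps between windows.

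The beta cluster lay in a region where all windows within 1 Mb scored below 0 in each of the 4 profiles. Only 182 of 341 grid positions (53.4%) held a window. The highest scores were -0.65 and -0.040 in control and -0.82 and -1.19 with auxin. The lowest scores were -4.38 and -3.54 in control and -3.55 and -3.57 with auxin, and in auxin replicate 2 the lowest window lay within the globin cluster. Of the 101 other protein-coding genes in this region, 82 are olfactory receptor genes and 10 are Trim genes, which encode ubiquitin ligases with roles in antiviral defence. In control cells 99 of the 101 were late and 2 of middle timing. Around the alpha cluster, 15 of 20 other genes were early, 3 of middle timing and 2 late (early above 0.5, late below -0.5). In 5 of those 20 genes both auxin profiles were above both controls, and in 6 below. Around the beta cluster the counts were 24 and 8 of 101, beside 23.9% and 25.9% of all genes.

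Next to the alpha cluster lie Nprl3, a gene of amino acid signalling to mTORC1, the DNA repair gene Mpg and the rhomboid-like gene Rhbdf1. Nprl3 scored 1.68 and 1.55 in control and 1.21 and 1.39 with auxin. Mpg scored 1.61 and 1.47 against 1.08 and 1.12, and Rhbdf1 1.53 and 1.34 against 1.02 and 1.01. In these 3 genes both auxin profiles were lower, with differences of -0.32, -0.45 and -0.42, and none passed the test over all genes (0% called). On the other side, the podosome adaptor gene Sh3pxd2b overlapped between groups, with 2.01 and 2.47 against 1.92 and 2.30. Ubtd2 had the most negative difference within 1 Mb, -0.48 (2.54 and 2.29 against 1.93 and 1.95), and Efcab9 differed by 0.19. The most positive difference, 0.69, was at the hormone gene Stc2, 907 kb from the cluster (-1.37 in both controls, -0.87 and -0.49 with auxin).

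The genes next to the beta cluster are olfactory receptor genes. On the lower side, Olfr67, Olfr68 and Olfr69 had differences between -0.011 and 0.0031. On the upper side, Olfr66 and Olfr64 differed by 0.41 and Olfr65 by 0.55. Olfr66 and Olfr64 share a window, as do Olfr68 and Olfr69, and none of the 6 passed the test over all genes. The largest differences within 1 Mb were 1.00 at Olfr583 and -1.05 at Trim34a. Olfr583 overlaps no window and takes the value of the nearest one. It scored -4.38 and -3.36 in control, which lay far apart, and -3.03 and -2.71 with auxin. The interval of Olfr583 was 0.17 to 1.83, and it did not pass over all genes in limma. Trim34a, 391 kb above the cluster, scored -0.67 and -0.040 in control and -1.42 and -1.39 with auxin. Its interval was -1.66 to -0.43, and it did not pass over all genes in limma. With a trended, robust variance, Trim34a, Trim5 and Trim6 were called later (adjusted p of 0.023, 0.023 and 0.032). Trim5 takes the window of Trim34a. The globin genes themselves were not called in that fit.

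The fit over 42710 bins of 50 kb with at least 3 windows called 1.66% of bins in the genome. It called 0 of 40 bins within 1 Mb of the alpha cluster and 0 of 32 around the beta cluster (limma, adjusted p under 0.05). At an unadjusted p under 0.05 there were 2 earlier and 1 later bins around the alpha cluster and 4 earlier and 1 later around the beta cluster, against 10.6% earlier and 11.1% later in the genome. The smallest adjusted p was 0.0752 on the alpha side, in a bin at chr11:31300001-31350000 that differed by 0.79. On the beta side it was also 0.0752, at chr7:104200001-104250000, where Trim6 and Trim34a lie and the score differed by -0.79. With trended, robust variances that alpha bin was called earlier and that beta bin later, where the genome had 5.17% of bins earlier and 5.66% later (10.8% in all). Of single windows with their middle within 1 Mb, limma called 0 of 337 and 0 of 182, against 0.999% in the genome. At an unadjusted p under 0.05 there were 13 earlier and 8 later around the alpha cluster and 18 and 7 around the beta cluster (10.2% and 10.7% in the genome). With trended, robust variances 9 alpha windows were earlier and 5 beta windows later (4.38% and 4.88% in the genome, 9.26% in all).

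**Figure D3:**
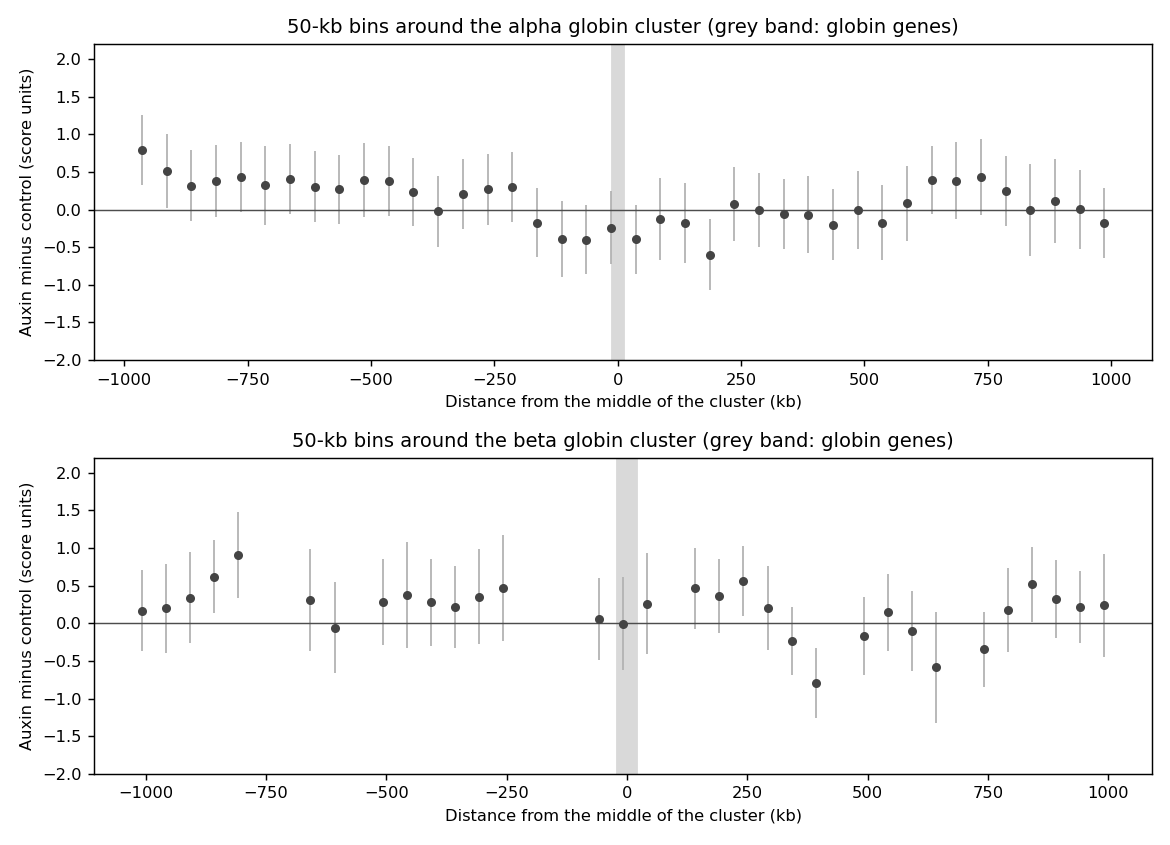
Difference between the auxin and control means (score units) in 50-kb bins with at least 3 windows within 1 Mb of the alpha cluster (top) and the beta cluster (bottom), with 95% intervals from limma (n = 2 profiles a group) and a grey band over the globin genes. Bins run from -0.60 to 0.79 around the alpha cluster and from -0.79 to 0.91 around the beta cluster, and none passed the adjusted threshold.

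The authors' deposited lists hold 63 regions that replicate later with auxin and 22 that replicate earlier. Within 1 Mb of either globin cluster there were 0 regions of either list. The lists hold few regions for a whole genome, and the share of it that they cover is not given here. The count of 0 therefore says nothing particular about the globin clusters. On chromosome 11 the nearest lay 13.8 Mb (later) and 10.9 Mb (earlier) from the alpha cluster. On chromosome 7 the nearest later region lay 31.2 Mb from the beta cluster, and the list of earlier regions had 0 on that chromosome.

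Other genes of red cell production were measured as 4 lists, and most replicated early, as did most protein-coding genes. Of 46 genes with a score, 35 were early, 3 of middle timing and 8 late in control. Of all 21072 genes, 14194 were early, 1868 of middle timing and 5010 late. None of the 46 passed in limma over all genes (0% called), and 7 had an unadjusted p under 0.05 against 17.1% of all genes. The median difference over the 46 genes was 0.014, and over all genes -0.00039. With a trended, robust variance, 3 of the 46 were called, all later with auxin, against 3.3% of all genes called later in that fit. They were Myb, Tal1 and Alad.

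Among 16 erythroid transcription factor genes the median difference was 0.0044. Myb, which encodes a factor of blood progenitors, scored 2.24 and 2.44 in control and 1.01 and 1.23 with auxin, without overlap. The difference was -1.22, with a limma adjusted p of 0.172 and one of 0.012 with a trended, robust variance. Tal1, a regulator of early blood formation that works with GATA1, scored 1.20 and 1.30 against 0.30 and 0.37. Its difference was -0.92, with adjusted p-values of 0.172 in limma and 0.015 with a trended, robust variance. Gata1 overlapped between the groups (3.61 and 2.74 against 3.19 and 3.35), as did Klf1 (3.16 and 3.51 against 2.88 and 3.79). Bcl11a, whose product represses embryonic globin genes, was of middle timing, with -0.15 and -0.15 against -0.10 and -0.096.

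In the 10 haem synthesis genes the median difference was 0.062. Alad, which encodes the enzyme for an early step of haem synthesis, scored 3.57 and 2.73 in control and 2.08 and 1.80 with auxin (limma adjusted p of 0.175, and 0.033 with a trended, robust variance). Urod, the gene of a later enzyme of the pathway, went the other way, with 2.60 and 3.14 against 4.11 and 3.52 (limma adjusted p of 0.208). The 16 red cell membrane and surface genes had a median difference of -0.012. Rhag, an ammonia channel gene of the Rh complex, differed by -0.53, and the water channel gene Aqp1 by -0.50. Of the other globins, 4 of 5 listed genes had a score. The myoglobin gene Mb differed by 0.53 and the cytoglobin gene Cygb by 0.27, and both replicated early.

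**Figure D4:**
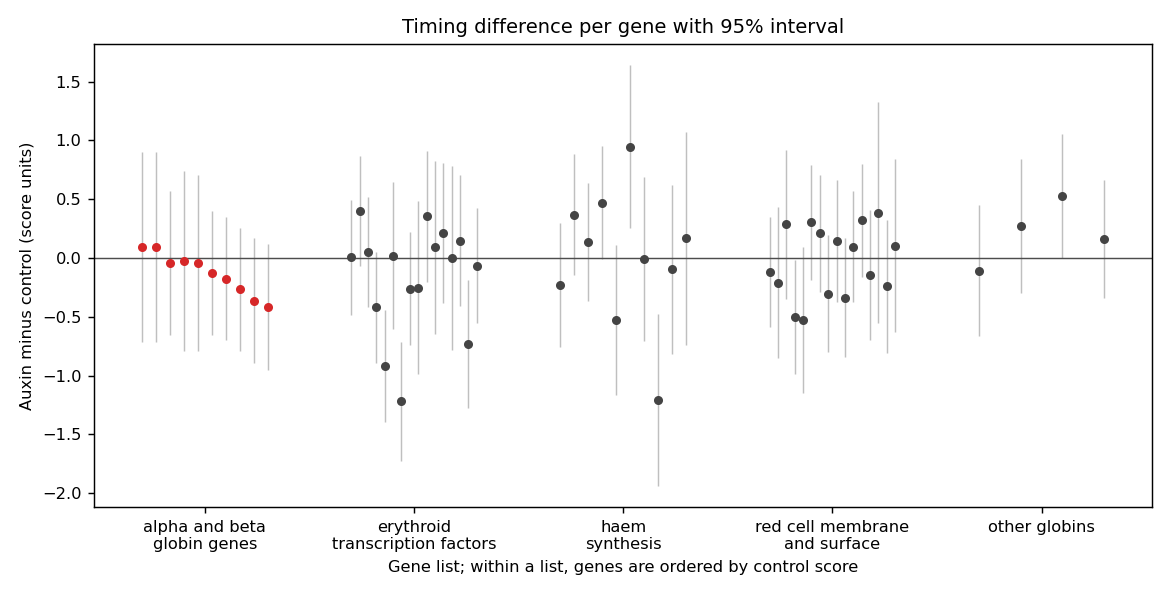
Difference between the auxin and control means (score units) for the 10 genes of the alpha and beta clusters (red) and the 46 measured genes of the red cell lists (dark), with 95% intervals from limma (n = 2 profiles a group). The globin genes lie between -0.42 and 0.091 and their intervals all include 0, and Myb (-1.22) and Alad (-1.21) lie lowest.

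Genes on other chromosomes with the most similar scores were sought by Euclidean distance over the 4 profiles, among genes with at least 3 windows. For the alpha cluster mean they were Got1 (distance 0.10), Ivns1abp (0.11), Psmc2 (0.13), 2700049A03Rik (0.14) and Actr10 (0.15), out of 12067 genes. For the beta cluster mean they were Vmn2r100 (0.25), Plppr4 (0.27), Ptprc (0.29), Fshr (0.33) and Ube2e3 (0.34), out of 12044. Vmn2r100, a vomeronasal receptor gene, scored -2.96 and -3.07 in control and -2.41 and -3.41 with auxin. These genes were chosen for closeness over the same 4 values.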

How the data were processed

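Nascent DNA was marked by a 2-hour BrdU pulse, cells were sorted by DNA content into early and late S phase, and the BrdU-containing DNA was sequenced, per the labels' protocols. The submitters' processing notes name Bowtie2, SAMtools, bedtools and the build mm10. The sources used here state neither smoothing nor the formula of the score. The authors deposited a timing score per window, quantile normalized over the 4 profiles per the labels, and the sorted columns are identical. They also deposited 2 region lists, of which only the positions were used.

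A gene's score was the mean of the windows over its body, or the nearest window within 50 kb (1064 of 21072 genes). Windows were taken to start at the deposited position. Genes came from RefSeq (GRCm38.p6). The groups were compared with limma 3.58.1 in R 4.3.3 (2 residual degrees of freedom). Its variances were moderated over all genes, bins or windows of a fit. The fit was also run on simulated scores, drawn independently and with shifts larger than the globin differences. That run does not bear on shifts as small as those of the globin genes. Cluster means were compared by exact permutation. Alternatives were trended and robust variances, a replicate block, leaving out each profile, and other windows, flanks and bins. Profiles with the same replicate number were not treated as pairs (correlation of their deviations 0.036). Globin genes were listed by name. Named neighbours are the 3 nearest genes on each side of a cluster, the largest difference in each direction within 1 Mb, the 2 largest of each red cell list, and the 5 most similar genes. Trim5, Trim6, Gata1, Klf1 and Bcl11a were named after their values were seen. The genes, lists and tests were chosen with earlier results of these data known. Protein sequences were not used here, and the promoter of Hbb-bh1 is not shown.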

Additional observations from a re-analysis of the deposited data

How the results depend on the processing

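The count of globin genes called was 0 of 5 in the main fit and with trended, robust variances. It was also 0 with the replicate block and with other windows, for which the share over all genes is not given here. The main fit called 0 of all 21072 genes, so its count of 0 says nothing particular about the globin genes. Genes with at least 3 windows could not be used for this count, since that leaves none of the 5. Within 1 Mb of the alpha cluster 1 bin of 50 kb was called with a trended, robust variance, and around the beta cluster 1 with that variance and 1 with the replicate block, against 0. Of 6-kb windows around both clusters, 14 were called with the trended, robust variance and 6 with the replicate block. For the replicate block the share over all bins and windows is not given here, so its local calls cannot be set against the genome. The window count also moved when either control profile was left out, which leaves 1 profile in that group. The erythroid genes called were 3 with the trended, robust variance. Over the genome that fit called 1120 genes, 4626 bins and 29334 windows, against 0, 707 and 3164, and the causes were not tested. In this balanced design the replicate block cannot change a group difference. The differences in the alpha cluster mean, the beta cluster mean and their gap therefore stayed at -0.32, 0.050 and -0.37. With the block, the exact permutation p was 0.5 for the alpha cluster mean, the smallest that swaps within 2 replicate pairs allow. Without the block it was 0.333, also the smallest possible, so this rise was fixed by the design. The exact permutation p of the gap rose above 0.667, from fewer arrangements than without the block. The block changed no call of a globin or erythroid gene. With a profile left out, the alpha cluster mean ran from -0.45 to -0.19, the beta mean from -0.34 to 0.44 and the gap from -0.84 to 0.096. Signs turned with a profile left out at Hba-x (-0.27 to 0.0095), Hbb-bt (-0.33 to 0.25), Hbb-bs (-0.50 to 0.41), Hbb-bh2 (-0.50 to 0.45) and Hbb-y and Hbb-bh1 (-0.41 to 0.59). Hbb-bh1 also turned with the window nearest to the gene start (-0.025). Hbb-bh2 also turned with windows within 25 kb (0.050) and with windows centred on their position (0.091), an alternative chosen after seeing the data. The other 142 values under alternatives kept their direction and call. They include differences from the trended, robust fit and the replicate block, which cannot change a difference. Depth is unknown, and 2 profiles a group limit what could be detected.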
